A study of Mus musculus with 5 samples.

Results

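Binding of estrogen receptor α (ERα) in the mouse uterus was examined around 4 genes of uterine epithelial function and implantation, Ltf, Lif, Ihh and Foxa2. The members were the ERα peaks that share at least 1 bp with a window on the mouse build mm9 made of the gene and about 100 kb on each side. They numbered 10 in all: 8 of the 17240 peaks listed after estradiol and 2 of the 5184 peaks listed after vehicle. Chromatin came from whole uteri of C57BL/6J mice, labelled WT, whose ovaries had been removed 10 to 14 days earlier. The estradiol mice received 250 ng of estradiol each into the peritoneum and the vehicle mice received saline, and tissue was taken 1 hour after the injection. ChIP-seq with the antibody sc-542 gave 1 ERα library per condition. The series also labels a pair of RNA polymerase II libraries and an input library, which were not analysed here. The labels do not give how many mice or uteri went into a library.

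ERα is a nuclear receptor that binds DNA at estrogen response elements or through other DNA-bound factors. In the mouse, lactoferrin (Ltf) is an iron-binding secretory protein of the uterine epithelium and a classical product of estrogen action. Leukaemia inhibitory factor (Lif) is the glandular cytokine whose rise before implantation follows the estrogen surge, Indian hedgehog (Ihh) is an epithelial ligand induced by progesterone that signals to the stroma, and Foxa2 is a forkhead transcription factor of the gland epithelium that is needed for glands and for Lif. Estrogen is reported to act on the epithelium partly through ERα of the stroma. The peaks come from all cells of the uterus together. Binding in epithelium, stroma and muscle cannot be told apart here, nor can more bound cells be told from stronger binding per cell. The lists hold no expression value, so the tissue label could not be set against marker genes.

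Each peak is an interval with a start, an end and a name, with no height or read count. Depth is therefore unknown, and an unlisted site may be unbound or below the authors' threshold. Since each condition rests on a single library, no test between conditions was possible, and each difference is one between these 2 libraries. The gene itself was taken as the window less 100 kb on each side, which places its ends to about 1 kb. These implied genes are 25.0 kb for Ltf, 16.0 kb for Lif, 7.0 kb for Ihh and 5.0 kb for Foxa2. RefSeq gives gene lengths of 23.475, 14.947, 6.358 and 4.093 kb in the same order. Ltf and Lif are read from the plus strand, Ihh and Foxa2 from the minus strand.

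The sequences just before the starts of Ltf, Lif and Ihh are shown first. All 3 starts lay clear of every listed ERα peak. So did the implied start of Foxa2, whose promoters are not printed. They are the 250 bases before the annotated start, 5′ to 3′ in the direction of transcription, from RefSeq on GRCm38.p6, another build than that of the peaks. Capitals mark the motifs found.
Ltf, chr9:111019042-111019291, plus strand, with a single arm of the estrogen response element in capitals: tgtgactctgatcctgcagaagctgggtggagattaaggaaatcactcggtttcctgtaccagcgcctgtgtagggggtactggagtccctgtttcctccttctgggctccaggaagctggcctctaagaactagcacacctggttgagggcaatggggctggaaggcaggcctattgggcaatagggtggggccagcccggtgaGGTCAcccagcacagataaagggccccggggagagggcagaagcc
Lif, chr11:4257318-4257567, plus strand, with an AP-1 site in capitals: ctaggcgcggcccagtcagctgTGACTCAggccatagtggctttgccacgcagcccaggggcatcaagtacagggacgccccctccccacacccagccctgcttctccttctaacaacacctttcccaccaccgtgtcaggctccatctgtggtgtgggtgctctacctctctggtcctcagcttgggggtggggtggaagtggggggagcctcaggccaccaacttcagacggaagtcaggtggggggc
Ihh, chr1:74951673-74951922, minus strand, with 2 GC boxes in capitals: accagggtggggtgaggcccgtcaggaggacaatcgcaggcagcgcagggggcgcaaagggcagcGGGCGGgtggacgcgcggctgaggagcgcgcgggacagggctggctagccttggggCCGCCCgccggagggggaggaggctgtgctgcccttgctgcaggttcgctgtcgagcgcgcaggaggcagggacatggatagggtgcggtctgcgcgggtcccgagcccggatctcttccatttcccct

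The motifs searched were the full estrogen response element (GGTCA and TGACC arms with any 3 bases between them), its single arm TGACC, the AP-1 site TGANTCA, the GC box GGGCGG and the TATA box TATAAA, each on both strands. A full element contains its single arms. The search covered 32851 promoters in the table, cut to the same 250 bases, of which 6 belong to the 4 genes (1 each for Ltf, Lif and Ihh, and 3 for Foxa2). None of the 4 genes had the exact full element in these 250 bases, and only 0.0639% of all promoters held it. Elements with a mismatch or farther upstream were not searched, so their absence is not shown. Ltf was the 1 gene of 4 with the single arm, GGTCA at bases -45 to -41, a motif held by 35.2% of promoters. Lif was the 1 gene with the AP-1 site, TGACTCA at bases -228 to -222, against 6.75% of promoters. GC boxes stood in the Ihh promoter and in 2 of the 3 Foxa2 promoters, against 32.7% of promoters. The TATA letters were found in 1 Foxa2 promoter, on the minus strand, against 12.4% of promoters. These matches describe letters in a window and show no binding.

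The first comparison was how many ERα peaks each gene had in its window after estradiol and after vehicle. Lif held 6 estradiol and 2 vehicle peaks, Ihh held 1 estradiol and 0 vehicle peaks, Foxa2 held 1 and 0 in the same libraries, and Ltf held 0 and 0. Thus 3 of the 4 windows had an estradiol peak and 1 of the 4 had a vehicle peak. For comparison, 43.4% of 12742 windows of a fixed 200 kb grid had at least 1 estradiol peak and 24.0% had at least 1 vehicle peak. More estradiol than vehicle peaks were listed in 3 of the 4 windows, against 36.3% of the grid. The windows are 205 to 225 kb long, a little longer than the grid windows, and the grid was not restricted to windows that hold a gene. With 4 windows these shares do not set the genes apart from the grid.

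**Figure D1:**
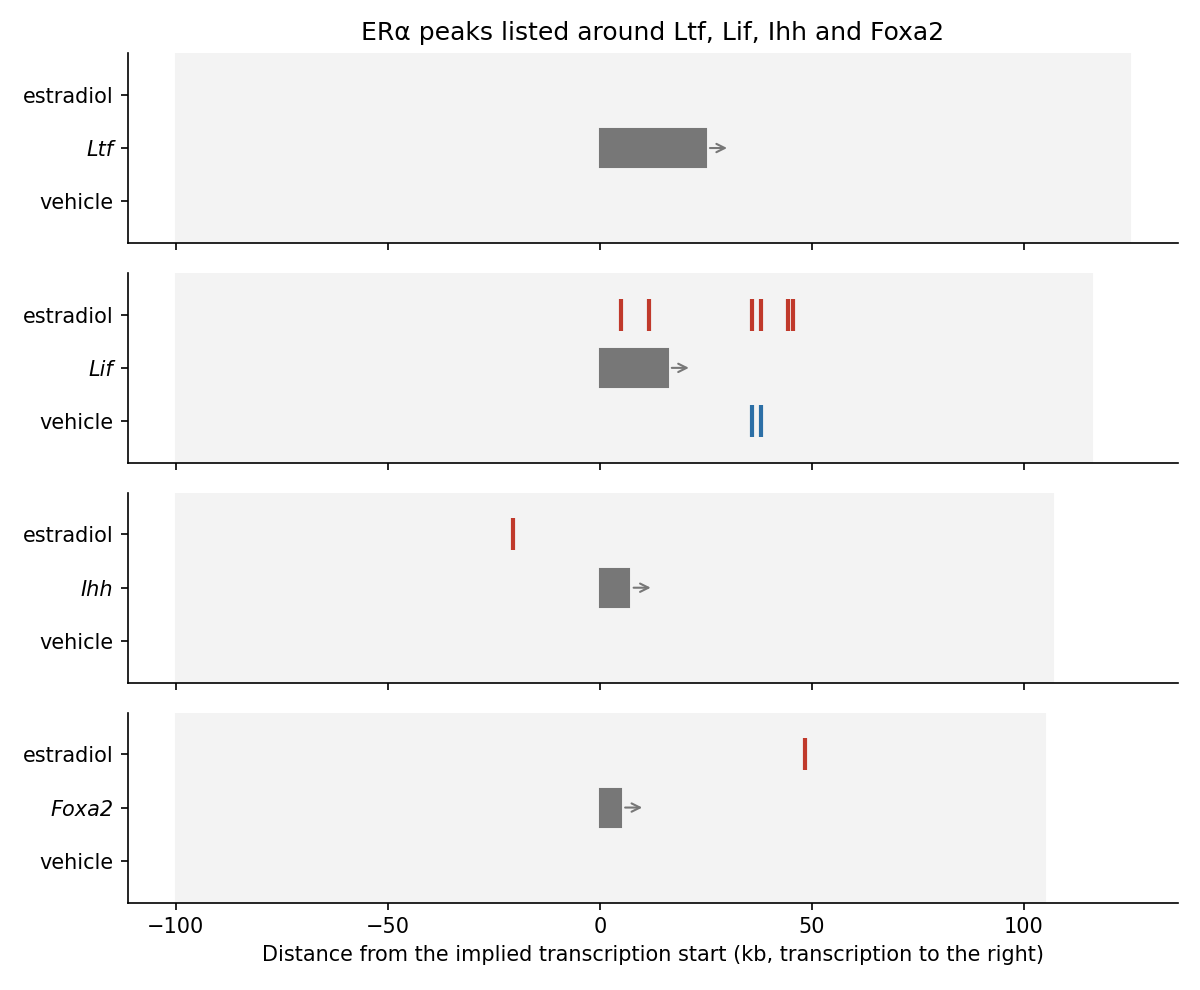
Map of the 4 windows, with distance from the implied transcription start in kb on the horizontal axis and transcription running to the right. Grey boxes are the implied genes, the light band is the window, and red and blue ticks are the midpoints of estradiol and vehicle peaks (1 library each, ticks wider than the peaks). Lif carried 6 of the 8 estradiol peaks and both vehicle peaks, and Ltf carried none.

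Lif was the only one of the 4 genes with ERα peaks inside the implied gene. The nearest estradiol peak outside the gene was about as close at Ihh (20.3 kb) as at Lif (19.6 kb). The Lif window held 2.78 estradiol peaks and 0.926 vehicle peaks per 100 kb, against 0.676 and 0.203 per 100 kb over the whole span of the lists. As counts, the 6 estradiol peaks have an exact 95% Poisson interval of 2.2 to 13.1 and the 2 vehicle peaks one of 0.242 to 7.22, for counting error only. These intervals overlap. On the grid, 6.58% of windows had at least 6 estradiol peaks, 8.99% had at least 2 vehicle peaks and 3.73% had both. The window was thus among those rich in peaks in both libraries, as were 475 of the grid windows by both counts.

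The 6 estradiol peaks at Lif fell into 2 groups. The first group, of 2 peaks, lay inside the implied gene. The first peak, 158 bp from base 4161878 to base 4162035 of chromosome 11 on mm9, was centred 5.0 kb after the implied start. A second of 280 bp from 4168597 to 4168876 was centred 11.7 kb after it. Neither met a vehicle peak, and the nearest vehicle peak lay 30.65 kb from the first and 23.809 kb from the second. No exon or intron can be named for them without an annotation on mm9.

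The second group, of 4 estradiol peaks, lay downstream of the gene within 10.1 kb. It began 19.6 kb beyond the implied end of Lif. The longest estradiol peak of the 4 windows was here, 772 bp from 4194576 to 4195347, and 172 of the 17240 estradiol peaks were longer. Beside it, 1.44 kb away, stood a peak of 526 bp from 4192615 to 4193140, with 95.3% of the list shorter. The other two were a peak of 123 bp from 4201256 to 4201378 and one of 368 bp from 4202321 to 4202688, which ended the group. Runs as dense as this, at least 4 peaks within 10.1 kb, took in 10.9% of all estradiol peaks. In RefSeq order the next coding gene downstream of Lif is Hormad2, and the next upstream is Osm, which encodes the related cytokine oncostatin M. The data do not show which gene, if any, the downstream sites serve. Beyond the window, 2 further estradiol peaks of 215 and 288 bp lay 135 and 136 kb downstream of Lif, and neither met a vehicle peak.

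Both vehicle peaks at Lif lay in this downstream group, under its 2 longest estradiol peaks. The vehicle peak of 209 bp from 4192686 to 4192894 lay inside the estradiol peak of 526 bp. The vehicle peak of 202 bp from 4194850 to 4195051 lay inside the estradiol peak of 772 bp. These vehicle peaks were of middling length for their list, with 50.4% and 47.8% of vehicle peaks shorter. The sites within Lif and the pair of peaks at the far end of the group had no vehicle peak.

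At these 2 shared sites the estradiol interval was the longer one. The ratio of estradiol to vehicle length was 2.52 at the first site and 3.82 at the second, against a median of 1.29 over the 3584 sites where 1 peak of each list met. A ratio of at least 2.52 was found at 8.48% of those sites and one of at least 3.82 at 1.76%. Among the 550 such sites whose vehicle peak was 190 to 220 bp long, the estradiol peak had a median of 279 bp, and it reached 526 bp in 24 sites (4.36%) and 772 bp in 7 (1.27%). The extra length was uneven at the first site, with 71 bp added on the side towards Lif and 246 bp on the far side. At the second it was nearly even, with 274 and 296 bp. A vehicle peak wholly inside its estradiol peak was common, at 63.4% of the 3584 sites. Length is an interval set by the authors' peak caller, and how far it follows binding strength or depth was not tested.

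**Figure D2:**
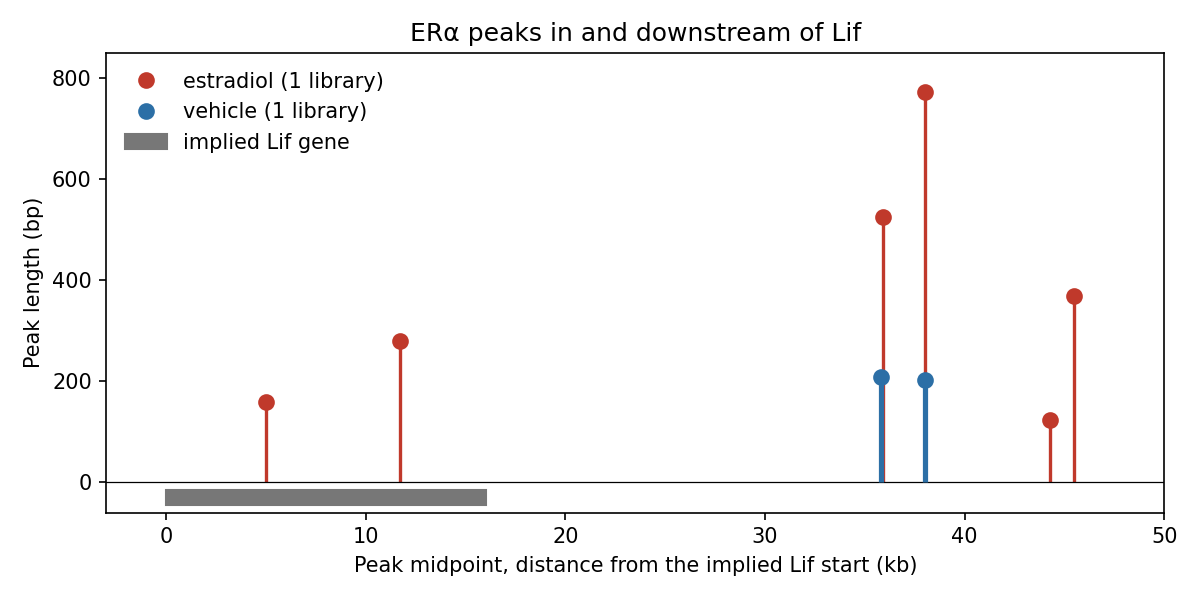
Peaks in and downstream of Lif, with the distance of each midpoint from the implied start in kb on the horizontal axis and peak length in bp on the vertical axis. Red stems are estradiol peaks and blue stems vehicle peaks (1 library each), and the grey bar is the implied gene. The vehicle peaks of 209 and 202 bp stand at the positions of the estradiol peaks of 526 and 772 bp.

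Ltf had no ERα peak in either library. The numbers in the peak names run without a break up to 17240 in the estradiol list and 5184 in the vehicle list, with 0 missing in each, so no numbered peak is absent from the lists used here. The nearest estradiol peaks were 236 kb upstream of the implied gene, 470 bp on chromosome 9 from 110684066 to 110684535, and 365 kb downstream, 208 bp from 111310842 to 111311049. The nearest vehicle peaks were farther off, 299 kb upstream and 1800 kb downstream. Windows with no peak in either list made up 54.9% of the grid, so an empty window of this size is common. The stretch of 626 kb without a peak around Ltf was long as a gap, since 4.06% of the 18687 gaps between neighbouring peaks of both lists together were at least as long. Such gaps nevertheless covered 50.5% of the span of the lists. The nearest coding neighbours of Ltf in RefSeq order are Rtp3 upstream and Ccrl2 downstream. No peak was therefore listed at the Ltf start, where the promoter printed above holds the single arm GGTCA, nor within 200 kb of the gene.

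Ihh had a single peak, seen after estradiol only. It was 199 bp long, on chromosome 1 from 75018346 to 75018544, and lay 20.3 kb upstream of the implied start, on the side of Nhej1, the next coding gene in RefSeq order. Of the estradiol list, 32.2% was shorter. The nearest vehicle peak lay 296.122 kb away and the nearest other estradiol peak 102.643 kb away. Ihh thus had a single estradiol site in its window and no listed site inside the gene. The length of that site fell between the lower quartile (183 bp) and the median (242 bp) of the estradiol list. Within 200 kb of the gene 2 further estradiol peaks were listed, both upstream, of 183 bp at 123 kb and of 303 bp at 179 kb, and neither met a vehicle peak.

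Foxa2 also had a single peak, again after estradiol only. It was 200 bp long, on chromosome 2 from 147824385 to 147824584, and began 43.4 kb beyond the end of the implied gene, on the side of Pax1 in RefSeq order. Of the estradiol list, 32.6% was shorter. Its nearest vehicle peak was 410.442 kb away and its nearest estradiol neighbour 327.132 kb away. No further peak of either library lay within 200 kb of Foxa2. A window with exactly 1 estradiol peak and no vehicle peak, as at Ihh and Foxa2, made up 11.5% of the grid.

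**Figure D3:**
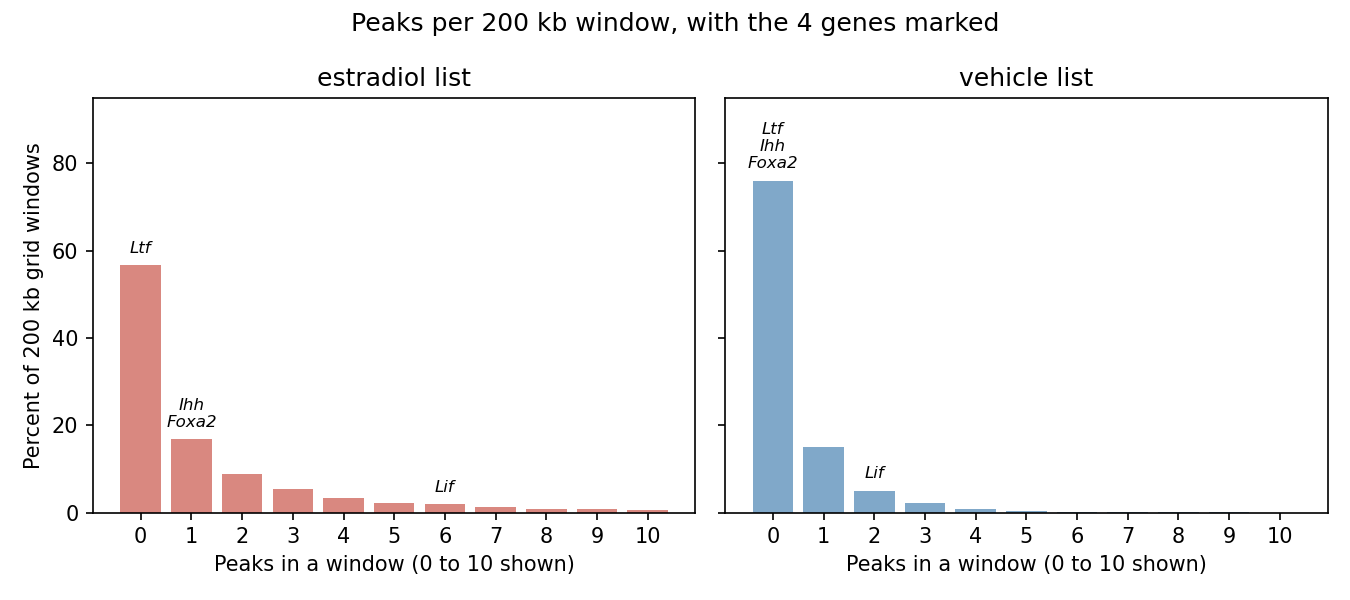
Share of 200 kb grid windows (vertical axis, percent of 12742 windows) by the number of peaks they hold (horizontal axis, 0 to 10 shown), for the estradiol list on the left and the vehicle list on the right. Gene names mark the count in each gene's own window. Ltf falls with the 56.6% of windows that had no estradiol peak. Lif stands at the estradiol bar for exactly 6 peaks (1.86% of windows), and 6.58% of windows had at least 6.

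The second comparison was how many of the sites were found in both libraries. Of the 8 estradiol peaks near these genes, 6 had no vehicle peak (exact 95% binomial interval 34.9 to 96.8%), against 78.8% of the whole estradiol list. Of the 2 vehicle peaks, both had an estradiol peak (an interval that starts at 15.8%), against 71.3% of the whole vehicle list. Both intervals hold the share of the whole list, and they are wide, so 10 peaks cannot show whether the sites near these genes differ from other ERα sites in this respect. All shared sites belonged to Lif. The intervals cover counting error only, and neighbouring peaks are not independent.

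The third comparison was of peak length. At Lif the estradiol peaks ran from 123 to 772 bp and covered 2227 bp in all, against 411 bp covered by its vehicle peaks. The whole lists had medians of 242 bp after estradiol and 207 bp after vehicle. Of the 6 Lif peaks, 4 were longer than that estradiol median, whereas the peaks of Ihh and Foxa2 were shorter than it. The numbers in the deposited peak names divide the estradiol peaks in the same way. Length also differed with number among peaks of the whole estradiol list numbered from 1570 on, and lower numbers were not compared. In that list, peaks numbered 1570 to 2226 had a median length of 349 bp, and those numbered later 225 bp. Lif peaks of 280, 526, 772 and 368 bp carried the consecutive numbers 1820 to 1823, and the other 4 estradiol peaks of the windows carried 9635 to 14523. What these numbers rank is not stated, and they follow position in this stretch, so no order of strength was read from them.

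**Figure D4:**
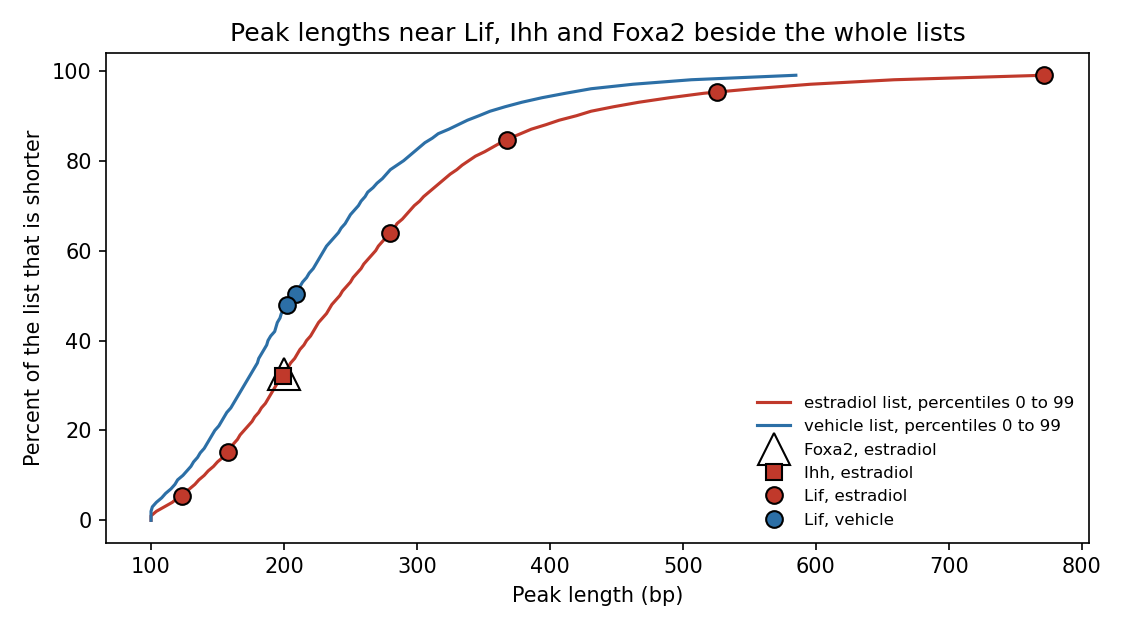
Length of each peak near Lif, Ihh and Foxa2 in bp (horizontal axis) against the percent of its own list that is shorter (vertical axis), with lines for the whole estradiol (red) and vehicle (blue) lists, without their longest 1%. Circles are Lif, the square Ihh and the open triangle Foxa2. The 2 Lif peaks of 526 and 772 bp stand near the top of the estradiol line, with 805 and 172 longer peaks in the list, and the Ihh and Foxa2 peaks of 199 and 200 bp overlie each other.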

How the data were processed

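Only the 2 ERα peak lists of the 5 samples were used. Per the file headers, the authors deposited peak intervals on mm9 as 4 columns (chromosome, start, end, name). Other than Partek, named with no role or version in the submitters' processing notes, no tool is named, and for aligner, caller, settings and control the sources used here give nothing. Starts were moved to counting from 1. Intervals of the same list never overlapped (0 cases). Windows, overlaps of at least 1 bp and a 200 kb grid from the first to the last peak of each chromosome were counted with Python 3.11.15, numpy 2.4.6, pandas 2.3.3 and scipy 1.17.1. These counters were tested on simulated data, where all 120 planted overlaps among 500 intervals were recovered. Strands, gene lengths, names of neighbouring genes and promoters came from RefSeq on GRCm38.p6, and no coordinate was moved between builds. The planned counts for other genes and motifs in peaks need mm9 annotation or sequence and were not made. All peaks in the 4 windows are accounted for by the rule. The genes, windows and lists were chosen with earlier results of these data known.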

Additional observations from a re-analysis of the deposited data

How the results depend on the processing

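Ltf had 0 peaks under every alternative run, and joining peaks closer than 500 bp changed no window. With the estradiol list reduced to its 5184 longest peaks, Lif held 3 estradiol peaks, Ihh 0 and Foxa2 0. The longest 50% of each list gave 1 vehicle peak at Lif and 0 estradiol peaks at Ihh and Foxa2, as did the lower 50% of the peak numbers, an alternative chosen after seeing the data. Flanks of 200 kb gave 3 estradiol peaks at Ihh and 8 at Lif, and flanks of 25 kb gave 0 at Foxa2 and 4 at Lif. With a reciprocal overlap of 50%, 100% of the 8 estradiol peaks had no vehicle peak and 0% of the 2 vehicle peaks were shared, since each vehicle peak covers too little of its longer partner. Over the whole lists these shares were 83.0% and 56.4%. In the reduced estradiol list 33.3% (1 of 3) had no vehicle peak, against 62.8% of all 5184 peaks kept. A 100 kb grid had no estradiol peak in 70.4% and no vehicle peak in 85.9% of windows, against 56.6% and 76.0% at 200 kb, as smaller windows must. The full element was in 0 genes' promoters and its single arm in 1. Not run were motifs in peaks with 1 mismatch. No paired analysis was possible because each condition had 1 library, which also left none to leave out. Unknown depth limits every statement on unlisted sites.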
